A study of Homo sapiens with 12 samples.

Results

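Glutathione is taken apart by a small set of enzymes, and the transcripts of 10 of their genes were followed in the human colorectal carcinoma line HCT116 after cystine, the oxidised dimer of cysteine, was withheld. The 10 genes (CHAC1, CHAC2, GGCT, OPLAH, GGT1, GGT5, GGT6, GGT7, CNDP2 and LAP3) were chosen by name, from what their products do, out of 60671 named rows in the count table, and each was found once. The choice was made with earlier results of these data known. Deprived cells were washed and then kept in DMEM with 0 mM cystine, and control cells stayed in full DMEM; both media held 10% fetal bovine serum and antibiotics, and the cells are labelled wild type. The 12 samples form 4 groups of 3: deprived and control cells at 48 h, and deprived and control cells at 24 h. The labels describe the wash for deprived cells only, so wash and deprivation cannot be told apart, and nothing in them says that replicates were separate cultures, so the p-values measure a spread that may be technical.

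Glutathione is made of glutamate, cysteine and glycine, with the glutamate joined through its side chain in a gamma-glutamyl bond that ordinary peptidases do not cut. On the outer face of the cell, gamma-glutamyltransferases cut or transfer that bond. Inside the cell, the cyclotransferases CHAC1 and CHAC2 release the glutamate as 5-oxoproline and leave cysteinylglycine, which dipeptidases split into cysteine and glycine. 5-Oxoprolinase turns 5-oxoproline back into glutamate, which closes the cycle. CHAC1 is widely known as a gene switched on by the amino acid and endoplasmic reticulum stress response through the transcription factor ATF4.

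Samples held 19146108 to 24179533 estimated counts. The low-count filter left 16994 genes for testing. Of the 10 genes, 8 were tested, while GGT5 and GGT6 were too low. All 8 epithelial markers listed for colorectal cells were tested, led by KRT8 at 1728 to 2496 counts scaled to library size (CPM), although KRT20 did not exceed 2.65 CPM and VIL1 did not exceed 2.00 CPM. The epithelial markers summed to 4734 to 5275 CPM in deprived and 3987 to 4399 CPM in control cells at 48 h, and to 5084 to 5213 CPM in deprived and 3685 to 4091 CPM in control cells at 24 h. The leukocyte markers PTPRC and CD3E were at 0 in all 12 samples. The 5 fibroblast markers summed to 20.1 to 22.4 CPM in deprived and 44.0 to 48.8 CPM in control cells at 48 h, and to 15.9 to 20.2 CPM in deprived and 31.7 to 33.6 CPM in control cells at 24 h. Nearly all of that was COL1A1, since DCN and LUM did not exceed 0.103 CPM. The part of these differences in the results was not tested. In bulk RNA, fewer cells that express a gene and less of its RNA per cell cannot be told apart.

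Deprived cells had more CHAC1, CHAC2 and CNDP2 RNA than control cells at 48 h and at 24 h, and less GGT1 RNA at both times. GGT7 was lower at 48 h, and OPLAH was higher at 24 h. At 48 h, 3 of the 8 tested genes were higher in deprived cells and 2 were lower, beside 33.5% and 34.9% of all tested genes. At 24 h, 4 were higher and 1 was lower, beside 28.8% and 26.9% of all tested genes. The numbers of calls among the 8 genes are thus near the background of this strong response, in which 68.3% of genes at 48 h and 55.6% at 24 h passed an adjusted p of 0.05 (edgeR's quasi-likelihood test, adjusted over all genes). The median log2 fold change of the 8 genes was 0.07 at 48 h, against -0.02 over all tested genes, and 0.20 at 24 h, against -0.01 over all tested genes. The size of the CHAC1 change sets it apart in rank: 37 genes had a larger log2 fold change at 48 h, and 72 had one at 24 h. This rank describes a gene chosen with earlier results of these data known.

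**Figure D1:**
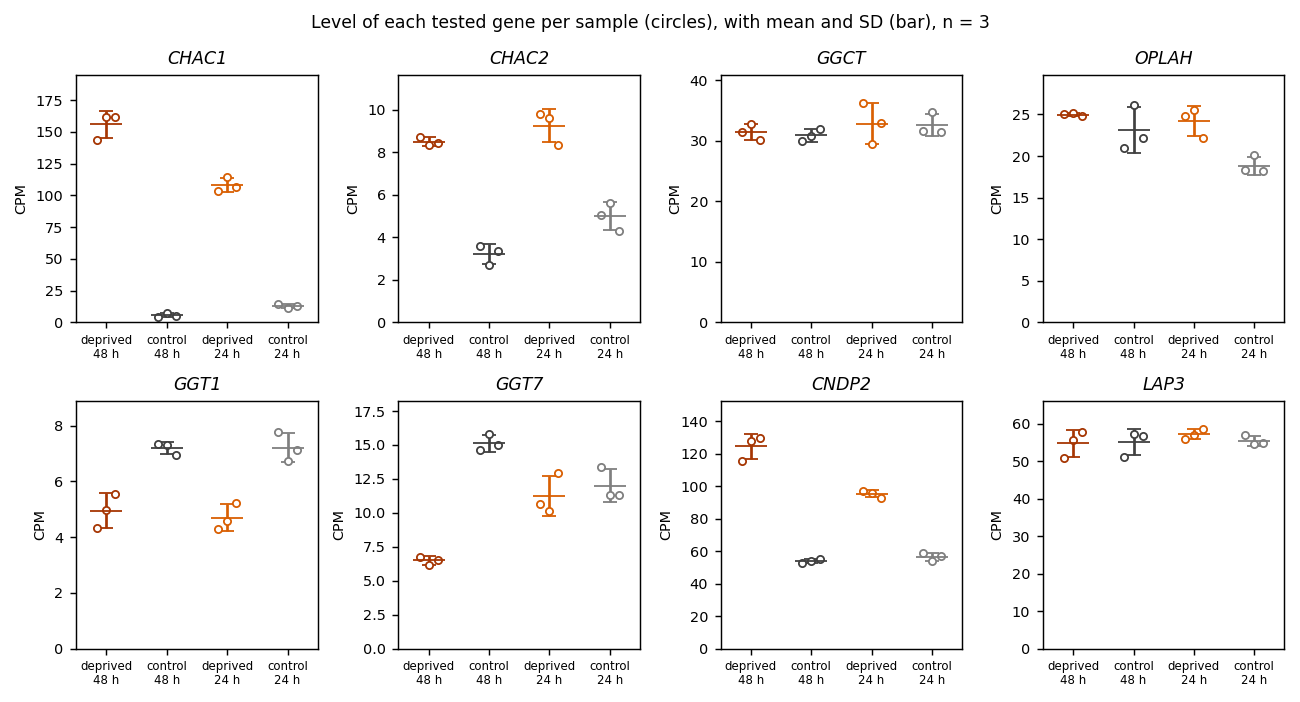
CPM of the 8 tested genes in each sample (circles, 3 per group) with the group mean and SD (bars); each vertical axis starts at 0. Deprived and control samples do not overlap for CHAC1, CHAC2, CNDP2 and GGT1 at either time, and they overlap for GGCT and LAP3 at both times.

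CHAC1 (ENSG00000128965, chromosome 15, 40952962 to 40956519, GRCh38), the cyclotransferase that degrades glutathione and is induced under stress, changed the most. At 48 h it stood at 144, 162 and 162 CPM in deprived cells, against 4.26, 7.18 and 5.09 CPM in control cells. At 24 h it stood at 103, 114 and 107 CPM in deprived cells, against 14.1, 11.2 and 12.7 CPM in control cells. Every deprived sample lay far above every control sample. The log2 fold change was 4.83 ± 0.12 at 48 h (SE, adjusted p = 2.66e-17) and 3.09 ± 0.10 at 24 h (adjusted p = 1.82e-14).

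The 250 bases before the transcription starts that RefSeq gives for these genes (GRCh38.p14) were searched for 3 motifs, those of ATF4, cAMP-responsive factors and NRF2. RefSeq windows were matched for 6 of the 10 genes, 10 windows in all. The motifs, searched on both strands, were TGATGNAA, the core of the C/EBP-ATF response element through which ATF4 acts, TGACGTCA, the cAMP response element, and TGACNNNGC, the core of the antioxidant response element bound by NRF2. Each match is shown with 30 bases of the strand of the gene, 5′ to 3′, and capitals mark the motif.
CHAC1, chr15:40953251-40953280: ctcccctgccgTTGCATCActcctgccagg
CNDP2, chr18:74496166-74496195: gctgggagaggTGACGTCAccttccgcacc
LAP3, chr4:17577084-17577113: cacccatcgtgTGACGTCAccatatcggtc
GGT1, chr22:24603153-24603182: gggaaggaggaGCTGGGTCAcagcagggaa
In CHAC1 the capitals are TGATGNAA read on the opposite strand, 209 to 202 bases before the RefSeq start. That motif was found in 3.14% of all 35116 windows. The CHAC1, CNDP2 and GGT1 matches all lie inside the gene spans of GENCODE release 29, downstream of the first annotated start, while the LAP3 match lies before it. CNDP2 and LAP3 each hold TGACGTCA, which 1.65% of all windows held, and CNDP2 was higher in deprived cells while LAP3 was not called. The GGT1 match is TGACNNNGC on the opposite strand, and 10.9% of all windows held that motif. The windows of CHAC2 and GGT7 held none of the 3. A match is a string of letters and not a site at which binding was measured.

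CHAC2 (ENSG00000143942, chromosome 2, 53767792 to 53775196) encodes the sister enzyme, which degrades glutathione more slowly and is usually described as constitutively expressed. It stood at 8.72, 8.35 and 8.42 CPM in deprived cells and at 3.58, 2.70 and 3.35 CPM in control cells at 48 h. The values at 24 h were 9.80, 9.60 and 8.35 CPM in deprived cells and 5.06, 5.60 and 4.31 CPM in control cells. The groups did not overlap at either time. The log2 fold change was 1.40 ± 0.14 at 48 h (adjusted p = 4.7e-08) and 0.89 ± 0.14 at 24 h (adjusted p = 1.77e-05). The RNAs of both enzymes of the pair were thus higher in deprived cells, CHAC1 by 28.4-fold and CHAC2 by 2.64-fold at 48 h, and by 8.52-fold and 1.85-fold at 24 h.

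The balance of the pair shifted towards CHAC1. Per length, CHAC1 made up 93.4%, 94.3% and 94.3% of the summed CHAC1 and CHAC2 level in deprived cells at 48 h, against 50.6%, 69.6% and 56.7% in control cells. At 24 h the share was 90.1%, 91.1% and 91.7% in deprived cells, against 70.6%, 63.4% and 71.7% in control cells. Deprived and control samples did not overlap in this share at either time, and no test was run on it.

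GGCT, the gamma-glutamylcyclotransferase that acts on gamma-glutamyl amino acids, is the next source of 5-oxoproline. It stood at 31.4, 32.9 and 30.1 CPM in deprived cells and at 29.95, 30.8 and 32.0 CPM in control cells at 48 h. At 24 h the values were 36.2, 29.5 and 32.9 CPM in deprived cells and 31.7, 34.7 and 31.4 CPM in control cells. The groups overlapped at both times. GGCT was not called, with a log2 fold change of 0.03 (95% interval -0.13 to 0.18, adjusted p = 0.773) at 48 h and 0.01 (95% interval -0.15 to 0.17, adjusted p = 0.924) at 24 h. In GENCODE release 29, GGCT shares 441 of its 1597 exon bases with AC005154.5, which had at most 4.44 estimated counts.

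OPLAH encodes 5-oxoprolinase, which opens 5-oxoproline to glutamate at the cost of ATP. It overlaps SMPD5 on the opposite strand, which had at most 12.2 estimated counts. At 48 h it stood at 25.1, 25.2 and 24.8 CPM in deprived cells and at 21.0, 26.2 and 22.2 CPM in control cells, and the groups overlapped. At 24 h it stood at 24.8, 25.6 and 22.1 CPM in deprived cells and at 18.3, 20.1 and 18.2 CPM in control cells, with no overlap. OPLAH was higher in deprived cells at 24 h by 0.36 ± 0.09 on the log2 scale (adjusted p = 0.0017). It was not called at 48 h (0.11 ± 0.08, adjusted p = 0.25), but was called without control 48 h replicate 2, its highest control value (0.21 ± 0.08, adjusted p = 0.034). The difference between the effects at 48 h and 24 h was itself not called (-0.25 ± 0.12, adjusted p = 0.124).

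GGT1 (ENSG00000100031, chromosome 22, 24583750 to 24629005) encodes the main gamma-glutamyltransferase of the outer cell surface. It stood at 4.31, 4.97 and 5.56 CPM in deprived cells and at 7.33, 7.31 and 6.93 CPM in control cells at 48 h. At 24 h it stood at 4.29, 4.58 and 5.22 CPM in deprived cells and at 7.76, 6.73 and 7.13 CPM in control cells. Every deprived sample lay below every control sample at the same time. GGT1 fell by 0.54 ± 0.13 on the log2 scale at 48 h (adjusted p = 0.0015) and by 0.61 ± 0.14 at 24 h (adjusted p = 0.000788). The difference between those effects was not called (0.07, 95% interval -0.33 to 0.48, adjusted p = 0.803).

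GGT1 counts rest on reads that other loci can share. The related loci GGTLC1, GGTLC3, GGT2P, GGT4P and GGT8P had estimated counts of 0 in all samples, and GGTLC2 and GGT3P reached at most 1 and 2.03. In GENCODE release 29, 306 of the 4434 exon bases of GGT1 are also exon bases of SNRPD3, a spliceosome protein gene on the same strand with 622 to 1132 estimated counts per sample. SNRPD3 fell by 0.55 ± 0.10 on the log2 scale at 48 h (adjusted p = 3.87e-05) and by 0.73 ± 0.10 at 24 h (adjusted p = 2.85e-06). The part of SNRPD3 reads in the GGT1 result was not tested.

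GGT7 (ENSG00000131067, chromosome 20, 34844720 to 34872860) belongs to the same family by sequence. It stood at 6.78, 6.12 and 6.56 CPM in deprived cells at 48 h, against 14.6, 15.8 and 14.96 CPM in control cells. Values of 10.7, 10.1 and 12.9 CPM were found at 24 h in deprived cells, against 13.4, 11.3 and 11.3 CPM in control cells. The groups were well apart at 48 h and overlapped at 24 h. GGT7 fell by 1.22 ± 0.11 on the log2 scale at 48 h (adjusted p = 1.15e-08), and was not called at 24 h (-0.10, 95% interval -0.32 to 0.13, adjusted p = 0.481). The effect at 48 h was below that at 24 h by 1.13 ± 0.16, and this difference passed the test (log2 scale -1.13, adjusted p = 1.56e-05).

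GGT5, a family member known for converting leukotriene C4, had estimated counts of 0 to 11.7 per sample. It stood at 0.264, 0 and 0.319 CPM in deprived cells and at 0.213, 0.0914 and 0.551 CPM in control cells at 48 h, and its values overlapped at 24 h too. GGT6 had at most 2 estimated counts in any sample. It rounded to 0 counts in all 6 deprived samples, where 3 counts, the limit that a count of 0 allows, correspond to 0.124 to 0.142 CPM, and the highest control value was 0.0946 CPM. A difference of GGT6 between deprived and control cells was not detectable at this depth.

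CNDP2 (ENSG00000133313, chromosome 18, 74495816 to 74523454) encodes the cytosolic dipeptidase that splits cysteinylglycine, the product left by CHAC1 and CHAC2. It stood at 116, 128 and 129.9 CPM in deprived cells at 48 h, against 52.6, 54.2 and 55.3 CPM in control cells. Its values at 24 h were 97.2, 95.5 and 92.9 CPM in deprived cells, against 58.7, 53.9 and 57.2 CPM in control cells. The lowest deprived value at each time was far above the highest control value. The log2 fold change was 1.20 ± 0.06 at 48 h (adjusted p = 6.24e-13) and 0.75 ± 0.06 at 24 h (adjusted p = 2.16e-09).

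LAP3, a leucine aminopeptidase that can also act on cysteinylglycine, stood at 50.9, 55.7 and 57.7 CPM in deprived cells and at 51.1, 57.3 and 56.8 CPM in control cells at 48 h. At 24 h it stood at 56.0, 57.1 and 58.7 CPM in deprived cells and at 57.0, 54.6 and 54.9 CPM in control cells. The groups overlapped at both times. LAP3 was not called, with a log2 fold change of -0.01 (95% interval -0.14 to 0.12, adjusted p = 0.922) at 48 h and 0.05 (95% interval -0.08 to 0.17, adjusted p = 0.557) at 24 h. The CNDP2 and LAP3 products can both split the same dipeptide, and CNDP2 alone of the pair was called.

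**Figure D2:**
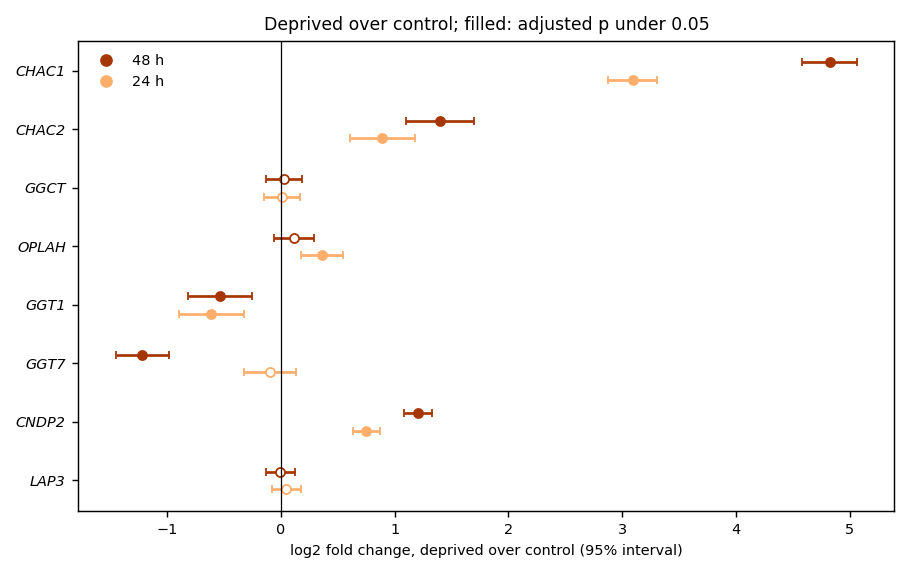
Log2 fold change of deprived over control for the 8 tested genes at 48 h and 24 h with 95% intervals; filled points passed an adjusted p of 0.05. CHAC1 stands at 4.83 and 3.09, GGT7 is called at 48 h only, and the intervals of GGCT and LAP3 span 0 at both times.

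Levels of different genes were compared per length, as estimated counts per base of the deposited gene length, scaled to the same total in each sample (TPM). In deprived cells at 48 h CHAC1 was the highest of the 10 genes, at a level of 199 ± 5.08 TPM (SD, n = 3), and in control cells it was the sixth highest, at 6.79 ± 1.71 TPM. CNDP2 came next to CHAC1 in deprived cells, at 90.9 ± 2.07 TPM, and after GGCT and LAP3 in control cells, at 38.3 ± 0.528 TPM. GGCT and LAP3 overlapped each other in both groups: GGCT had a level of 52.7 ± 3.03 TPM in deprived and 50.2 ± 1.13 TPM in control cells. LAP3 had a level of 50.5 ± 1.46 TPM in deprived and 49.3 ± 1.68 TPM in control cells.

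The lower part of the order at 48 h was CHAC2 (12.6 ± 0.830 TPM), OPLAH, GGT7 and GGT1 (3.78 ± 0.348 TPM) in deprived cells, and OPLAH (10.8 ± 1.05 TPM), GGT7, CHAC1, GGT1 and CHAC2 (4.62 ± 0.767 TPM) in control cells. CHAC2 and OPLAH overlapped in deprived cells. In control cells OPLAH overlapped GGT7, and GGT1 overlapped both CHAC1 and CHAC2.

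At 24 h CHAC1 was again the highest in deprived cells, at a level of 138 ± 8.42 TPM, and in control cells it came after GGCT, LAP3 and CNDP2, at 16.6 ± 2.07 TPM. CNDP2 had a level of 69.4 ± 2.11 TPM in deprived cells and 42.4 ± 2.27 TPM in control cells. GGCT and LAP3 again overlapped each other in both groups, and they were the highest genes in control cells. GGT5 and GGT6 were the lowest in all 4 groups, with means of at most 0.261 and 0.0497 TPM.

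**Figure D3:**
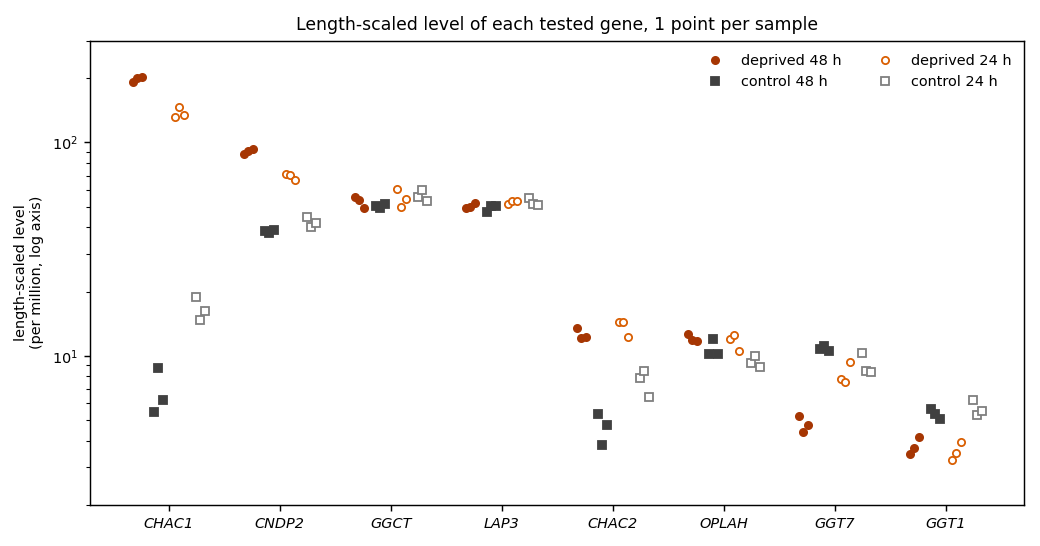
Level in TPM (log axis) of the 8 tested genes, 1 point per sample. CHAC1 spans from 5.46 in a control sample at 48 h to 202 in a deprived sample at 48 h, while GGCT and LAP3 stay between 47.3 and 60.4 in all samples.

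The effect of deprivation differed between 48 h and 24 h for CHAC1, CNDP2 and GGT7. That was 2 genes with a more positive effect at 48 h and 1 with a more negative effect, beside 16.4% and 19.2% of all tested genes, or 35.6% in either direction. The CHAC1 log2 fold change was larger at 48 h by 1.74 ± 0.16 (adjusted p = 1.08e-07). It had contributions from both media: CHAC1 was higher at 48 h than at 24 h in deprived cells by 0.53 ± 0.08 (adjusted p = 5.21e-05), and in control cells it fell by 1.21 ± 0.14 (adjusted p = 5.88e-06). The larger part of the difference was therefore the lower control level at 48 h. The CNDP2 log2 fold change was larger at 48 h by 0.45 ± 0.08 (adjusted p = 0.000209), with a rise of 0.39 ± 0.05 in deprived cells (adjusted p = 1.36e-05) and no call in control cells (-0.07, 95% interval -0.19 to 0.06, adjusted p = 0.454).

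CHAC2 fell with time in control cells by 0.63 ± 0.15 (adjusted p = 0.00488) and was not called between the times in deprived cells (-0.12, 95% interval -0.39 to 0.15, adjusted p = 0.484). The difference between its effects at 48 h and 24 h was 0.51 ± 0.20 and missed the threshold (adjusted p = 0.0507). It passed without control 24 h replicate 3 (0.61, adjusted p = 0.0276) and without control 48 h replicate 1 (0.61, adjusted p = 0.0346), and under 4 other settings. GGT7 fell by 0.79 ± 0.11 at 48 h against 24 h in deprived cells (adjusted p = 1.74e-05). It was 0.33 ± 0.11 higher at 48 h in control cells (adjusted p = 0.0297).

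OPLAH was also higher at 48 h than at 24 h in control cells, by 0.30 ± 0.09 (adjusted p = 0.0192), and not called in deprived cells (0.05 ± 0.08, adjusted p = 0.687). The 2 calls upwards in control cells were marginal, with log2 fold changes of 0.28 to 0.42 for GGT7 and 0.20 to 0.36 for OPLAH over all 20 alternatives. Without control 24 h replicate 3 neither GGT7 (0.29, adjusted p = 0.102) nor OPLAH (0.27, adjusted p = 0.068) passed, and without control 48 h replicate 2 neither passed (0.30, adjusted p = 0.102, and 0.20, adjusted p = 0.131). OPLAH was also lost without control 24 h replicate 1 (0.27, adjusted p = 0.0765), and GGT7 without control 24 h replicate 2 (0.29, adjusted p = 0.114) or control 48 h replicate 3 (0.34, adjusted p = 0.0626). In control cells 2 of the 8 genes were higher at 48 h and 2 lower, beside 12.7% and 10.4% of all tested genes, or 23.0% in either direction. In deprived cells 2 were higher and 1 lower, beside 20.7% and 21.8%, or 42.5% in either direction.

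**Figure D4:**
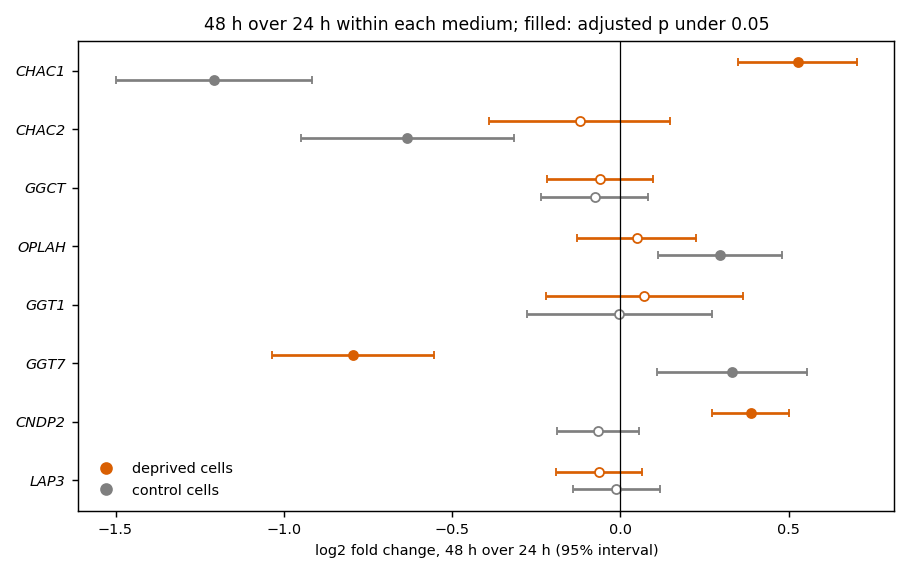
Log2 fold change of 48 h over 24 h within deprived and within control cells for the 8 tested genes, with 95% intervals; filled points passed an adjusted p of 0.05. CHAC1 moves in opposite directions in the 2 media, at 0.53 in deprived and -1.21 in control cells, and so does GGT7, at -0.79 in deprived and 0.33 in control cells.

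Genes that make glutathione changed beside those that break it down. Of 8 genes for cystine uptake, glutathione synthesis, its reduction and its use by peroxidases, 5 were higher and 2 lower in deprived cells at both times. The median log2 fold change of the 8 was 1.28 at 48 h and 1.11 at 24 h. Of all tested genes, 33.5% were higher and 34.9% lower at 48 h, and 28.8% and 26.9% at 24 h, with medians of -0.02 and -0.01. The 2 lower genes, named here after their values were seen, were the glutathione peroxidases GPX1 (-0.68 ± 0.07 at 48 h and -0.40 ± 0.06 at 24 h) and GPX4 (-1.14 ± 0.06 and -0.49 ± 0.06). GSR, the glutathione reductase, was not called (0.04 ± 0.06 at 48 h and 0.11 ± 0.06 at 24 h). GSS, which adds glycine in the last step of synthesis, was higher by 1.51 ± 0.06 at 48 h and 0.99 ± 0.06 at 24 h. GCLM, the modifier subunit of the first step, was higher by 2.77 ± 0.07 and 1.99 ± 0.07, and the cystine importer subunits SLC7A11 and SLC3A2 by 4.35 ± 0.12 and 3.06 ± 0.08 at 48 h. The log2 fold changes of CHAC1 thus lay beside those of SLC7A11, at 4.83 and 4.35 at 48 h and at 3.09 and 3.16 at 24 h.

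Around the outer-face branch, 7 of 11 genes for peptidases and for dipeptide and amino acid carriers were tested, and 4 were higher and 0 lower in deprived cells at both times, with 3 not called. With direction left aside, those calls are near the share of all tested genes called, 68.3% at 48 h and 55.6% at 24 h. By direction, 33.5% of all tested genes were higher and 34.9% lower at 48 h, and 28.8% and 26.9% at 24 h. The 4 higher genes were all carriers, and of these SLC38A2 was only 1.09-fold higher at 48 h and 1.08-fold higher at 24 h. DPEP1, the only listed peptidase that was tested, was not called (-0.01 ± 0.33 at 48 h and 0.01 ± 0.32 at 24 h on the log2 scale). The peptidases ANPEP, DPEP2, DPEP3 and CNDP1 were not tested, with highest estimated counts of 5, 2, 0 and 4. SLC1A4, a neutral amino acid carrier, was higher by 3.52 ± 0.12 at 48 h and 2.42 ± 0.12 at 24 h on the log2 scale, and SLC1A5, a glutamine carrier, by 1.55 ± 0.06 and 1.30 ± 0.06. SLC15A1, a carrier of dipeptides and tripeptides, was higher by 0.64 ± 0.16 at 48 h (adjusted p = 0.00156) and 0.42 ± 0.17 at 24 h (adjusted p = 0.04).

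Of 12 integrated stress response genes known to go with CHAC1, 11 were tested and all 11 were higher in deprived cells at both times, beside 33.5% of all tested genes at 48 h and 28.8% at 24 h, with a median log2 fold change of 2.46 at 48 h and 2.10 at 24 h. They include STC2, a secreted glycoprotein (3.72 ± 0.07 at 48 h and 2.98 ± 0.07 at 24 h), TRIB3, a pseudokinase that binds ATF4 (3.48 ± 0.07 and 3.30 ± 0.07), PPP1R15A, a phosphatase subunit (3.49 ± 0.07 and 2.51 ± 0.07), and SESN2, a leucine sensor (3.58 ± 0.08 and 2.69 ± 0.08). The effect was called larger at 48 h than at 24 h for 7 of the 11 and smaller for 3. Among all tested genes, 16.4% had a more positive effect at 48 h and 19.2% a more negative one. DDIT3 (2.24 ± 0.08 at 48 h and 3.09 ± 0.08 at 24 h), CEBPB (1.32 ± 0.08 and 1.95 ± 0.09) and DDIT4 (0.59 ± 0.08 and 1.705 ± 0.08) had lower values at 48 h. ATF4 RNA was higher by 0.68 ± 0.06 and 0.42 ± 0.06. The 12th gene, VLDLR, had at most 4 estimated counts. Of 12 NRF2 target genes, 11 were higher and 1 lower at both times, beside 33.5% and 34.9% of all tested genes at 48 h and 28.8% and 26.9% at 24 h. HMOX1, a haem oxygenase, was higher by 5.74 ± 0.09 at 48 h and 4.03 ± 0.09 at 24 h. The 1 lower gene was ABCC2, a conjugate exporter, at -0.20 ± 0.06 and -0.35 ± 0.06. This list shares GCLC, GCLM, SLC7A11 and ABCC2 with the others described, so the lists are not independent. Both lists were also chosen with earlier results of these data known, so their counts are descriptions and carry no test.

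Of the 5 genes whose log2 CPM followed CHAC1 most closely over the 12 samples, among 11013 genes compared, 4 are described: CDKN1A (Pearson r = 0.998), MARS1 (r = 0.996), ANXA3 (r = 0.996) and ANKRD11 (r = 0.996). The 12 samples share 4 groups, so these values mostly describe group means and carry no test. CDKN1A, a cyclin-dependent kinase inhibitor, stood at 512, 599 and 626 CPM in deprived and 133, 158 and 142 CPM in control cells at 48 h, and at 492, 515 and 501 CPM in deprived and 196, 198 and 209 CPM in control cells at 24 h. All 4 were higher in deprived cells at both times and lower at 48 h than at 24 h in control cells. None of the 4 had a fold change near that of CHAC1: ANXA3, an annexin, had the largest of the 4, at 5.51-fold at 48 h and 3.36-fold at 24 h. MARS1, the cytosolic methionyl-tRNA synthetase, was higher by 3.92-fold and 2.55-fold.

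**Figure D5:**
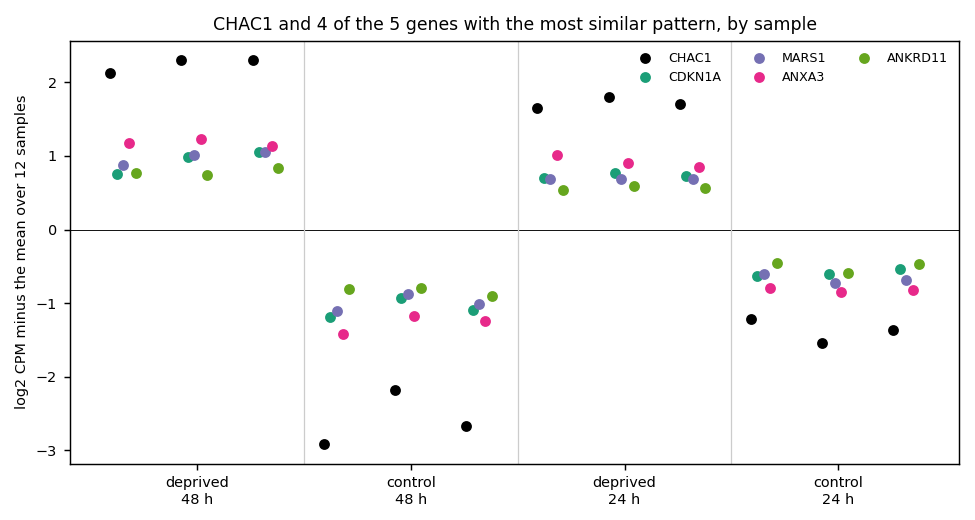
Log2 CPM minus the mean over all 12 samples for CHAC1 (black) and 4 of the 5 genes most like it, by sample within each group. CHAC1 runs from 2.30 above its mean in a deprived sample at 48 h to -2.92 in a control sample at 48 h; the means of the 4 genes follow the same order of groups, each gene over a narrower range.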

How the data were processed

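RNA was isolated with TRIzol and freed of DNA before Illumina library preparation, per the labels' protocols. The authors deposited estimated counts per gene, 1 column per sample, without normalization, and the gene length; fastp, HISAT, RSEM and the build GRCh38 are named in the submitters' processing notes, with no versions or roles. Strandedness and the annotation release are not given in the sources used here, and overlapping genes may therefore share reads. Rows without a gene name (316 of 60987, 0.748% to 1.65% of counts) were left out. Groups and replicate numbers came from the sample titles.

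Estimated counts were rounded, filtered with filterByExpr (minimum count 10, minimum total 15) and scaled by TMM. All 12 samples entered 1 fit of 4 group means in edgeR 4.0.16 (R 4.3.3; glmQLFit, glmQLFTest), with 5 contrasts and Benjamini-Hochberg adjustment over all 16994 genes; an adjusted p given without a sample or under another setting is from edgeR or DESeq2 refitted that way, and every other is from this fit. Each SE was derived from the log2 fold change and its F statistic (size over square root of F). Replicates of a group differed by more than sampling noise (chi-square per degree of freedom 2.91 to 7.56). Floors from counts cover counting error only. The contrasts of deprived against control cells were tested on simulated data in which few genes changed, unlike in these data. The other contrasts were not simulated.

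Members and lists were chosen with earlier results of these data known. All 10 members are named. Of each neighbour list the text takes at most 4 genes, those with the smallest adjusted p at 48 h, besides lower genes named where few were lower. ATF4, DDIT3, CEBPB, DDIT4, DPEP1 and GSR were named besides these, after their values were seen. Genes like CHAC1 are the 5 with the highest Pearson r of log2 CPM (prior count 2), with a mean of at least 5 CPM; 1 of them is not reported here. Coordinates are from GENCODE release 29 on GRCh38, and sequences from RefSeq on GRCh38.p14. Alternatives were other scalings, DESeq2 1.42.0, other filters, the replicate block, only the compared groups, and leaving out each of the 12 samples.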

Additional observations from a re-analysis of the deposited data

Results flagged for a closer look

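The effect of deprivation on 3 of the 8 tested genes differed between 48 h and 24 h by edgeR's test of the difference itself, beside 35.6% of all tested genes. For CHAC1 the effect at 48 h exceeded that at 24 h by 1.74 on the log2 scale (adjusted p = 1.08e-07), the value at 48 h being 4.83 and that at 24 h 3.09. For GGT7 the difference was -1.13 (adjusted p = 1.56e-05), with -1.22 at 48 h and -0.10 at 24 h. For CNDP2 it was 0.45 (adjusted p = 0.000209), with 1.20 at 48 h and 0.75 at 24 h. These differences kept their direction and their call under all 19 alternatives run, between 1.58 and 1.97 for CHAC1, between -1.21 and -1.01 for GGT7 and between 0.42 and 0.51 for CNDP2.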

How the results depend on the processing

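Of 792 log2 fold changes of the 8 tested genes recomputed under the alternatives, 745 kept their direction and their side of the threshold. Every call of deprived against control cells was kept under all 20 alternatives. The number of genes higher at 48 h than at 24 h in control cells, 2, was 1 with library totals as the scale, where GGT7 was not called, and 0 to 2 without single samples; fewer samples entered those fits. The CHAC2 difference between times passed under RLE scaling (0.53), upper-quartile scaling (0.53), library totals (0.56) and a filter at a mean of 5 CPM (0.50).

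Genes near no change turned sign without a call. GGCT at 24 h was -0.061 with upper-quartile scaling, -0.065 with library totals and -0.013 with the filter at 5 CPM, and at 48 h -0.032 with upper-quartile scaling and -0.0090 with the filter at 5 CPM. LAP3 at 24 h was -0.025 with upper-quartile scaling and -0.029 with library totals, and at 48 h 0.0051 with RLE scaling, 0.0015 with no filter, 0.0066 with only the compared groups and 0.0051 with DESeq2. GGT1 between times in control cells was 0.0059 with the filter at 5 CPM. Without single samples the ranges for GGCT were -0.062 to 0.085 at 24 h, -1.775e-06 to 0.060 at 48 h, -0.055 to 0.092 for the difference and -0.13 to 0.014 between times in deprived cells. For LAP3 they were -0.058 to 0.048 at 48 h, -0.10 to 0.00028 for the difference and -0.043 to 0.039 between times in control cells. For GGT1 they were -0.017 to 0.17 for the difference, -0.021 to 0.16 between times in deprived cells and -0.052 to 0.052 in control cells, and for OPLAH -0.0088 to 0.092 between times in deprived cells.

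With the replicate number as a block, 11734 genes were called at 48 h and 9631 at 24 h, 6329 for the difference, and 7473 and 4306 between times in deprived and control cells, and no call among the 8 genes changed. Deviations of same-numbered deprived and control samples had r of -0.0050 to 0.126 at 48 h and -0.0099 to 0.031 at 24 h. Those of differently numbered samples had r of -0.116 to 0.075 at 48 h and -0.042 to 0.035 at 24 h. With 3 samples per group, these weak correlations cannot decide whether the numbers pair the samples. Without length scaling the CHAC1 share of the pair was 94.8% in deprived cells at 48 h and 92.1% at 24 h. Depth limits GGT5 and GGT6, which were not tested.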

Other observations

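GGH, the lysosomal hydrolase that removes gamma-glutamyl chains from folates, fell by 2.15 ± 0.09 on the log2 scale at 48 h (edgeR adjusted p = 1.06e-13) and by 0.60 ± 0.08 at 24 h (adjusted p = 4.02e-06). GGACT, which cleaves gamma-glutamylamines, was not called at 48 h (0.12 ± 0.16, adjusted p = 0.518) and was higher at 24 h by 0.83 ± 0.17 (adjusted p = 0.00038). These were the 2 tested genes of 9 in their list, which otherwise held loci related to GGT1.

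Of 6 exporters that carry glutathione or its conjugates, 3 were higher and 1 lower in deprived cells at 48 h, and 2 were higher and 3 lower at 24 h. The share called among all tested genes was 68.3% at 48 h and 55.6% at 24 h, so the number of calls among the exporters was near the background at 48 h. At 24 h 1 of the 6 was not called, so the called share was above the background in this short list. By direction, 33.5% of all tested genes were higher and 34.9% lower at 48 h, and 28.8% and 26.9% at 24 h. ABCC3, a multidrug resistance protein, was higher by 1.72 ± 0.07 at 48 h and 1.75 ± 0.07 at 24 h, and ABCG2, a drug exporter, by 2.35 ± 0.23 and 1.22 ± 0.24. ABCG2 was low, with means of 4.35 CPM in deprived and 0.851 CPM in control cells at 48 h. At 24 h its means were 2.58 and 1.10 CPM. ABCC4, a related exporter, was higher at 48 h (0.17 ± 0.06, adjusted p = 0.0221) and lower at 24 h (-0.20 ± 0.06, adjusted p = 0.0139).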
